A study of Mus musculus with 15 samples.

Results

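The Fc gamma receptors of mouse blood and the proteins they signal through were followed in whole blood taken 6 h after dosing with ABBV-075. This compound, also called mivebresib, blocks the BET proteins, whose bromodomains read acetylated histones at active genes. The members are 7 genes: the activating receptors Fcgr1, Fcgr3 and Fcgr4, their shared signalling chain Fcer1g, the inhibitory receptor Fcgr2b, the neonatal Fc receptor Fcgrt and the tyrosine kinase Syk. All probe sets of the array annotated with a member's symbol alone were taken, which gave 15 of 45101 probe sets. Of these, 12 were tested, with at least 1 for each of the 7 genes, among 24273 probe sets tested in all. The mice had received vehicle, 1 mg/kg ABBV-075 or 5 mg/kg ABBV-075, with 5 mice in each of the 3 groups and 1 array per mouse, 15 arrays in all. The labels used here name no strain, sex, age, vehicle or route of dosing.

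Fc gamma receptors bind the constant part of IgG and tell leukocytes that an antibody has found its target. The activating receptors carry no signalling motif of their own and pair with Fcer1g, whose ITAM is phosphorylated by Src family kinases and then docks Syk, which starts phagocytosis, cell killing and cytokine release. Fcgr2b carries an ITIM instead, which recruits inositol and tyrosine phosphatases that stop the same signal. It is the Fc gamma receptor of B cells and is also found on myeloid cells. Fcgr4 is found on monocytes and neutrophils, Fcgr3 on monocytes, neutrophils and NK cells, and Fcgr1 is the high-affinity receptor of monocytes and macrophages.

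Values are intensities on the log2 scale after quantile normalisation, with a floor of 4.00, to which lower values were set. Each value is a level of its own probe set, and levels were not compared between genes. Correlations between arrays ran from 0.703 to 0.923. The array of 1 mg/kg replicate 1 stood apart: its median deposited intensity was 3.61, the lowest of the 15, and its median correlation with the other arrays was 0.805, against 0.84 for the next lowest array. Results for members that rest on it are given with and without it. As whole blood should, the arrays carried signal for erythroid, platelet, T cell, B cell, monocyte and neutrophil markers. Cd4 and Hdc lay at the floor on every array, as did 6 of the 12 eosinophil and basophil markers.

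Fcgr4 and Fcgr3 had lower signal than vehicle at both doses of ABBV-075, while Fcer1g and the brightest Fcgr2b probe set differed by at most 0.13 on the log2 scale, and no member passed the adjusted threshold. Fcgr4 (probe set 1425225_at), a receptor for IgG2 antibodies, read 5.83, 6.51, 6.75, 6.52 and 6.76 in vehicle mice, 4.00, 6.21, 5.94, 5.72 and 5.51 in 1 mg/kg mice, and 5.45, 5.22, 5.15, 5.00 and 5.46 in 5 mg/kg mice. Every 5 mg/kg mouse lay below every vehicle mouse, whereas 3 of the 5 mice at 1 mg/kg did, and the value of 4.00 belongs to the array that stands apart. The mean was 5.26 ± 0.20 at 5 mg/kg and 6.48 ± 0.38 in vehicle (SD, n = 5 each), a log2 difference of -1.22 ± 0.33 (SE), or 2.33-fold lower, with a 95% interval from -1.93 to -0.52. The limma p was 0.00207 before adjustment and 0.229 after Benjamini-Hochberg adjustment over all probe sets tested, so Fcgr4 did not pass the threshold of 0.05. Without the array of 1 mg/kg replicate 1 the same difference of -1.22 had an SE of 0.21 and a limma adjusted p of 0.0276, past the threshold; over 28 alternative settings the adjusted p ran from 0.0264 to 1. In whole blood, fewer cells of a type and less RNA per cell cannot be told apart.

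At 1 mg/kg Fcgr4 averaged 5.48 ± 0.86, against 6.48 ± 0.38 in vehicle (SD, n = 5 each), a difference of -1.0 ± 0.33 (SE, limma unadjusted p = 0.00827, adjusted p = 0.76). Without 1 mg/kg replicate 1 the difference was -0.63 (limma adjusted p = 0.871). In the intensities as deposited, before any scaling, Fcgr4 read 48.7, 51.1, 18.7, 43.9 and 39.0 at 5 mg/kg, against 60.3, 85.7, 88.3, 75.8 and 100.3 in vehicle, again without overlap.

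Fcgr3 (1448620_at), the low-affinity activating receptor, read 7.72, 8.27, 7.91, 7.92 and 7.67 in vehicle mice, 7.14, 7.47, 7.84, 6.99 and 7.08 in 1 mg/kg mice, and 7.34, 6.73, 7.64, 7.32 and 7.37 in 5 mg/kg mice. The highest 5 mg/kg mouse lay just under the lowest vehicle mouse, and 4 of the 5 mice at 1 mg/kg lay below all vehicle mice. The difference at 5 mg/kg was -0.62 ± 0.22 (SE), 1.53-fold lower, with a 95% interval from -1.07 to -0.16 (limma unadjusted p = 0.0115, adjusted p = 0.4). The lower dose gave -0.59 ± 0.22 (limma unadjusted p = 0.0146, adjusted p = 0.802). Fcgr3 did not pass the threshold at either dose, and between the doses it differed by -0.02. In the intensities as deposited the groups overlapped: Fcgr3 read 180.8, 142.5, 102.3, 221.1 and 146.6 at 5 mg/kg, against 220.2, 281.1, 196.1, 198.5 and 189.1 in vehicle.

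Fcgr1 lay close to the floor, so a decrease in it has little room to show. Its probe set 1417876_at read 4.10, 5.63, 5.53, 4.93 and 4.55 in vehicle, 7.36, 4.00, 5.18, 4.00 and 4.22 at 1 mg/kg, and 4.00, 4.00, 4.00, 4.33 and 5.42 at 5 mg/kg. It was above the floor on 5 vehicle arrays, 4 arrays at 1 mg/kg and 2 at 5 mg/kg, and the highest value, 7.36, is again 1 mg/kg replicate 1. The difference at 5 mg/kg was -0.60 ± 0.55 (SE), with a 95% interval from -1.77 to 0.57 (limma adjusted p = 0.866). The 1 mg/kg difference was 0.0030 with that array and -0.62 without it (limma adjusted p = 0.904). A further Fcgr1 probe set lay at the floor on every array and was not tested.

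**Figure D1:**
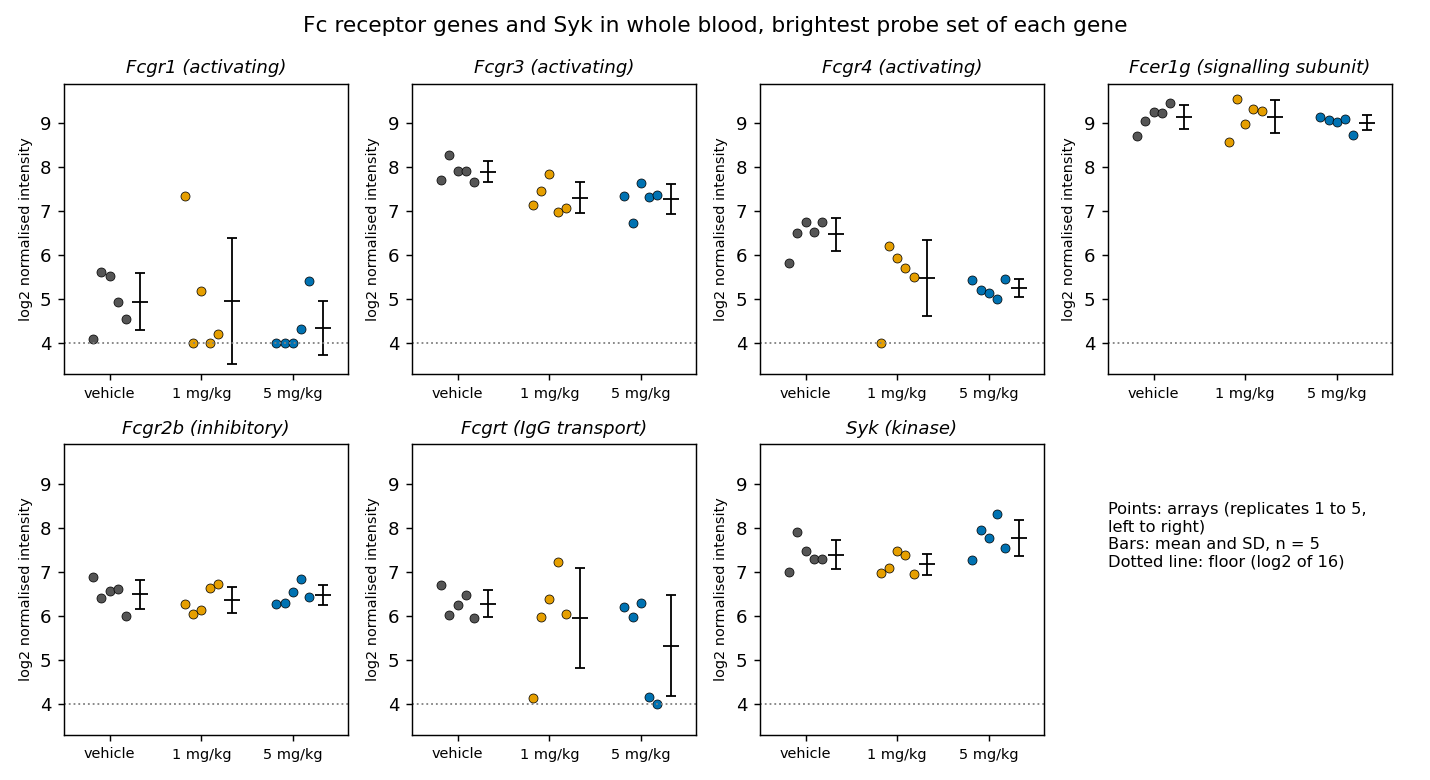
Log2 normalised intensity (y axis) of the probe set chosen for each member, with 1 point per mouse and bars for the mean and SD in the vehicle, 1 mg/kg and 5 mg/kg groups, and the floor at 4. For Fcgr4 the 5 mg/kg mice, from 5.00 to 5.46, lie below the vehicle mice, from 5.83 to 6.76, whereas the Fcgr2b groups overlap.

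The upstream sequences of the activating receptors and of Fcgr2b are shown because the comparison sets them against each other. Fcgr2b, Fcgr4 and Fcgr3 lie next to each other in that order on chromosome 1, with 0 protein-coding genes between them in the RefSeq annotation of GRCm38.p6, and 7 lie between Fcgr3 and Fcer1g. Fcgr1 is on chromosome 3, Fcgrt on chromosome 7 and Syk on chromosome 13. Each sequence is the 250 bases before the annotated start in RefSeq (GRCm38.p6), written 5′ to 3′ on the gene's strand. Capitals mark the hexamer GAGGAA on either strand, the core of the box bound by the myeloid factor PU.1. The windows are chr1:171018676-171018925 on the plus strand for Fcgr4 and, on the minus strand, chr1:171059395-171059644 for Fcgr3, chr3:96293970-96294219 for Fcgr1 and chr1:170976072-170976321 for Fcgr2b.
Fcgr4: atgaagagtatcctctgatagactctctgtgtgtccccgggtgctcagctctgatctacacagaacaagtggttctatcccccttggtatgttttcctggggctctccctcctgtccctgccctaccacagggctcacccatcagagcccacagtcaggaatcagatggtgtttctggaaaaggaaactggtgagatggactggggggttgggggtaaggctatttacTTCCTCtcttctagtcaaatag
Fcgr3: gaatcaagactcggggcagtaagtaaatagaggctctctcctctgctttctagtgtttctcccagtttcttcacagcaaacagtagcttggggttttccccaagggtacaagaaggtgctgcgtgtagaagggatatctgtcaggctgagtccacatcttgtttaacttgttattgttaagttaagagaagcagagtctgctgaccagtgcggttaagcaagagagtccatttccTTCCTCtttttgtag
Fcgr1: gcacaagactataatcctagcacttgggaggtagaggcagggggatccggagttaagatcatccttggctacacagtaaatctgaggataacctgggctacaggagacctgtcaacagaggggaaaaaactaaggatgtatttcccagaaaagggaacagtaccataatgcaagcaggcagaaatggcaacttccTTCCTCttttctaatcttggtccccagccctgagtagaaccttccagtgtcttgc
Fcgr2b: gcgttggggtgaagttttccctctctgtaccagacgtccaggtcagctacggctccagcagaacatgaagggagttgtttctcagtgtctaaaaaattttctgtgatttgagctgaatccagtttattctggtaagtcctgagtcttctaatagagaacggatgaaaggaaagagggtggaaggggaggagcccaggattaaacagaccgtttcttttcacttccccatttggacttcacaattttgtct
The hexamer was on the reverse strand in the windows of Fcgr4, Fcgr3 and Fcgr1, and in 1 of the windows of Syk on the forward strand, so 4 of the 7 genes held it. It was not in the windows of Fcgr2b, Fcer1g or Fcgrt. Fcgr3 and Syk have more than 1 annotated start. Counted by window, 5 of the 9 member windows held the hexamer, and the overlapping windows of Fcgr3 hold the same site. Among 32851 windows of the same length, 23.3% held the hexamer on either strand. The pattern TTCNNNGAA, the form of a STAT binding site and read the same on both strands, was in the Fcgr1 window alone among the members and in 7.02% of all windows. These matches describe letters in a window and were not linked to the intensities.

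Fcer1g (1418340_at), the ITAM chain that the activating receptors need at the surface, read 8.71, 9.05, 9.26, 9.22 and 9.45 in vehicle, 8.58, 9.55, 8.97, 9.33 and 9.28 at 1 mg/kg, and 9.14, 9.08, 9.02, 9.09 and 8.73 at 5 mg/kg. The 3 groups overlapped. The difference at 5 mg/kg was -0.13 ± 0.20 (SE), with a 95% interval from -0.56 to 0.31 (limma adjusted p = 0.937). The 1 mg/kg difference was 0.0040 ± 0.20 (limma adjusted p = 0.997).

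The inhibitory receptor Fcgr2b had no detectable difference. Its brightest probe set, 1435477_s_at, read 6.88, 6.41, 6.57, 6.61 and 6.00 in vehicle, 6.27, 6.04, 6.14, 6.63 and 6.73 at 1 mg/kg, and 6.27, 6.30, 6.55, 6.84 and 6.44 at 5 mg/kg, with the groups overlapping. The difference at 5 mg/kg was -0.01 ± 0.21 (SE), with a 95% interval from -0.45 to 0.42 (limma adjusted p = 0.995). At 1 mg/kg it was -0.13 ± 0.21 (limma adjusted p = 0.958). The other tested Fcgr2b probe sets, 1435476_a_at and 1451941_a_at, differed by 0.16 ± 0.30 and 0.19 ± 0.39 at 5 mg/kg. Of the 5 probe sets of this gene, 2 were not tested, since 1 lay at the floor on every array and 1 was above it on 2 arrays, and 3 share an annotated target sequence, so they are not independent readings. The probe sequences were not used here, so binding of Fcgr2b probes to the similar Fcgr3 transcript was not tested.

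The activating and inhibitory receptors were compared within each array by the log2 difference between the receptor's brightest probe set and that of Fcgr2b, so that a factor common to the whole array cancels. Fcgr4 minus Fcgr2b was -1.22 ± 0.40 at 5 mg/kg and -0.02 ± 0.66 in vehicle (SD, n = 5 each), a difference of -1.21 ± 0.34 (SE), or a ratio 2.31-fold lower. The 5 mg/kg mice ran from -1.83 to -0.83 and the vehicle mice from -1.04 to 0.77, overlapping through vehicle replicate 1. The exact two-sided permutation test over 252 splits gave p = 0.0238, and 0.179 after adjustment over the 9 comparisons, with 0.00794 the smallest p it can give. Fcgr3 minus Fcgr2b was 0.80 ± 0.32 at 5 mg/kg and 1.40 ± 0.39 in vehicle (SD, n = 5 each), a difference of -0.60 ± 0.23 (SE), exact permutation p = 0.0397, 0.179 adjusted. Neither passed after adjustment.

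Fcgr1 minus Fcgr2b differed by -0.59 ± 0.45 at 5 mg/kg (exact permutation p = 0.23, adjusted p = 0.414) and by 0.13 ± 0.77 at 1 mg/kg (exact permutation p = 0.905, adjusted p = 0.905). At 1 mg/kg the differences of Fcgr4 minus Fcgr2b were -0.87 ± 0.52 (exact permutation p = 0.127, adjusted p = 0.381) and of Fcgr3 minus Fcgr2b -0.46 ± 0.33 (exact permutation p = 0.19, adjusted p = 0.414). Without 1 mg/kg replicate 1 these 3 differences at 1 mg/kg were -0.51 for Fcgr1, -0.53 for Fcgr4 and -0.44 for Fcgr3. Between 5 mg/kg and 1 mg/kg they were -0.72 ± 0.75 for Fcgr1, -0.34 ± 0.46 for Fcgr4 and -0.14 ± 0.31 for Fcgr3 (exact permutation p = 0.413, 0.5 and 0.659, adjusted p = 0.619, 0.643 and 0.741). Without that array they were -0.12, -0.68 and -0.16. The 5 mg/kg and 1 mg/kg comparisons with vehicle share the vehicle mice.

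**Figure D2:**
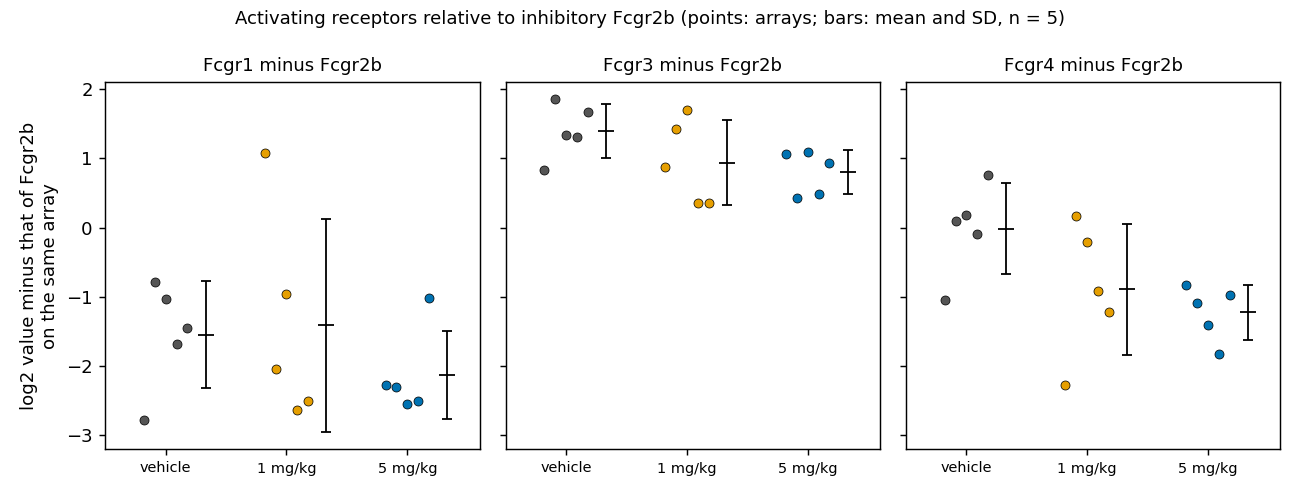
Log2 difference between an activating receptor and Fcgr2b in each mouse (y axis), by group, with a point per mouse and bars for the mean and SD. Fcgr4 minus Fcgr2b averaged -1.22 at 5 mg/kg and -0.02 in vehicle, and all groups overlap.

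Syk, the kinase that binds the phosphorylated ITAM, read 7.0, 7.91, 7.47, 7.30 and 7.29 in vehicle, 6.97, 7.10, 7.47, 7.39 and 6.95 at 1 mg/kg, and 7.27, 7.96, 7.76, 8.33 and 7.54 at 5 mg/kg on its brightest probe set, 1418261_at. At 5 mg/kg 4 of the 5 mice lay above all 1 mg/kg mice, while the vehicle group overlapped both. The difference was 0.38 ± 0.23 for 5 mg/kg against vehicle (SE, limma adjusted p = 0.747) and 0.60 ± 0.23 for 5 mg/kg against 1 mg/kg (limma unadjusted p = 0.0176, adjusted p = 0.487). All 4 Syk probe sets were higher at 5 mg/kg than in vehicle, by 0.24 to 0.39, and none passed the threshold. Between 5 mg/kg and 1 mg/kg the difference of 1418261_at was 0.55 without 1 mg/kg replicate 1 (limma adjusted p = 0.62), and on all arrays another probe set, 1418262_at, differed by 0.79 ± 0.26 (limma unadjusted p = 0.0085, adjusted p = 0.45). The B cell markers ran from 7.06 to 7.73 at 5 mg/kg and from 6.10 to 7.22 at 1 mg/kg, overlapping. The T cell markers ran from 6.87 to 7.79 at 5 mg/kg and from 6.31 to 7.25 at 1 mg/kg, also overlapping. The part of B or T cell content in the Syk values was not tested.

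Fcgrt (1416978_at), which binds IgG in acidic endosomes and returns it to the blood, read 6.70, 6.03, 6.25, 6.49 and 5.95 in vehicle, 4.13, 5.97, 6.39, 7.23 and 6.05 at 1 mg/kg, and 6.20, 5.98, 6.31, 4.16 and 4.00 at 5 mg/kg. At 5 mg/kg 2 of the 5 mice lay at or near the floor and below all vehicle mice, and the other 3 lay among them. The difference was -0.95 ± 0.54 (SE, limma adjusted p = 0.721). Its 95% interval, from -2.09 to 0.19, holds values of both signs.

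No member probe set passed an adjusted p of 0.05 at either dose or between the doses, 0 of 12 in each comparison. Over all probe sets tested, 0.136% passed at 5 mg/kg and 0.00824% at 1 mg/kg against vehicle, and 0% between the doses. At an unadjusted p of 0.05, 2 of 12 members were lower at 5 mg/kg, Fcgr4 and Fcgr3, against 3.69% of all probe sets. Fcgr4 and Fcgr3 were again the 2 lower at 1 mg/kg, against 3.77%, and 2 Syk probe sets were higher at 5 mg/kg than at 1 mg/kg, against 6.19%. Fcgr4 and Fcgr3 were also the 2 members whose 5 mg/kg and vehicle mice did not overlap after normalisation, where 1.15% of all probe sets were lower without overlap. With 2 probe sets of 2 neighbouring genes, these counts describe Fcgr4 and Fcgr3 and not the family.

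**Figure D3:**
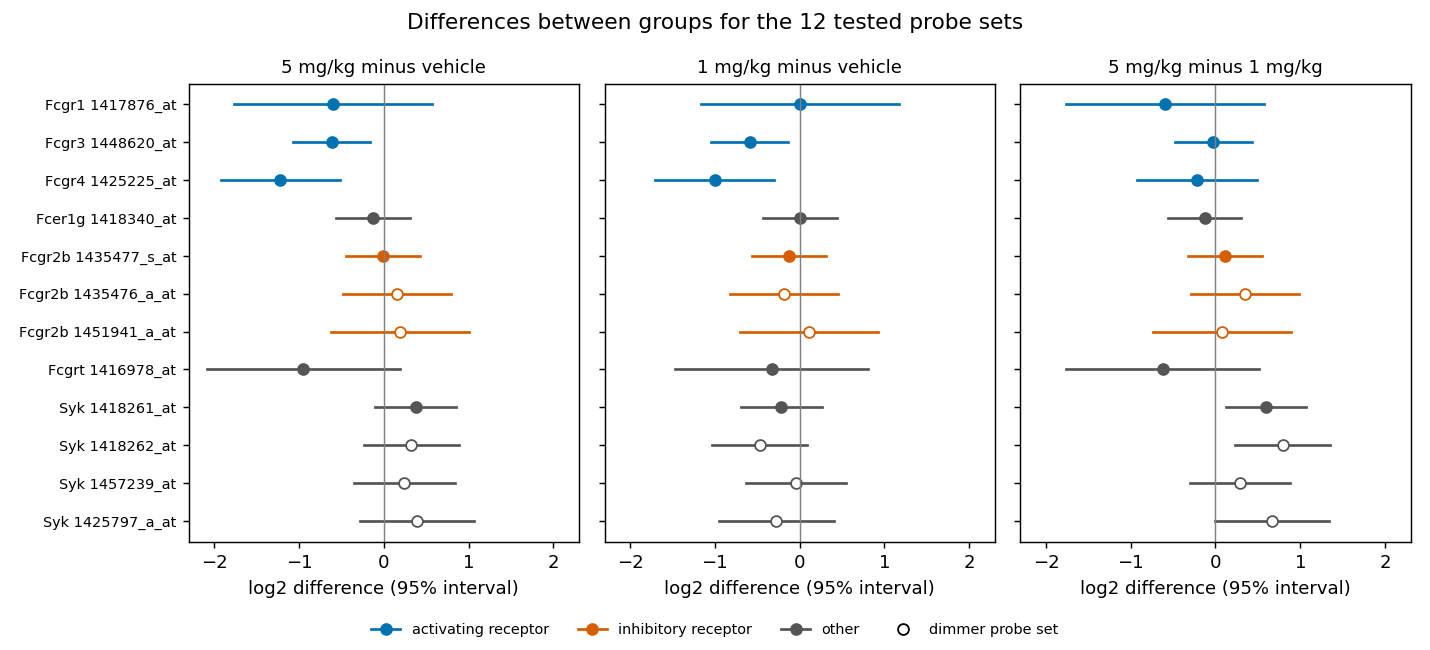
Log2 difference with its 95% interval (x axis) for each of the 12 tested probe sets (rows), in 3 panels, for each dose relative to vehicle and for the higher dose relative to the lower; open points are dimmer probe sets. At 5 mg/kg the intervals of Fcgr4 (-1.93 to -0.52) and Fcgr3 (-1.07 to -0.16) lie below 0, and no difference passed the adjusted threshold.

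The wider pathway was read through 7 further lists, with 1 probe set a gene. Over all 12499 genes tested the median difference at 5 mg/kg was -0.03 and 53.4% were lower, with 0.072% past the adjusted threshold as lower and 0.04% as higher; 1.29% of all probe sets were higher without overlap. For 1 mg/kg the median over all genes was -0.02 and 53% were lower. Among 26 adaptors and effectors downstream of Syk, 11 were higher and 15 lower at 5 mg/kg, with a median of -0.08, and none passed the threshold. Of the 26, 21 were lower at 1 mg/kg, with a median of -0.26. Grb2, the adaptor that links receptors to Ras, had a difference of 0.73 ± 0.17 without overlap (limma adjusted p = 0.133), and the phosphoinositide kinase Pik3cg differed by -0.56 ± 0.18 without overlap (limma adjusted p = 0.317). The exchange factor Sos1, the partner of Grb2, differed by 1.06 ± 0.37 on its brightest probe set (limma adjusted p = 0.394), while its other tested probe sets gave -0.36 ± 0.21 and 0.20 ± 0.26, so they disagree in direction.

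Among the other ITAM adaptors and receptors listed, Clec7a was the only gene past the threshold. The list was drawn up around Fcer1g and Syk but also holds T cell genes. Clec7a, the receptor for fungal beta-glucan known as Dectin-1, averaged 6.98 ± 0.41 at 5 mg/kg and 8.68 ± 0.25 in vehicle (SD, n = 5 each), a difference of -1.71 ± 0.32 (SE), or 3.26-fold lower, without overlap (limma adjusted p = 0.0462). Its difference was called in 7 of the 13 other settings and in 4 of the 15 that leave out a mouse, with adjusted p from 0.0093 to 1, so the call rests on the setting. In this list of 18 genes, 11 were lower and 7 higher at 5 mg/kg, with a median of -0.35. The higher genes were the B and T cell genes Cd79a, Cd79b, Cd3e and Cd247, and also Trem1 (0.47), Oscar (0.32) and Nfam1 (0.19). Of the 18, 16 were lower at 1 mg/kg (median -0.43). Clec4d, which signals through the Fcer1g chain, differed by -0.80 ± 0.26 (limma adjusted p = 0.333), and Clec4e by -1.06 ± 0.23 with 2 of 5 arrays above the floor (limma adjusted p = 0.1). The other Clec4e probe set differed by -0.44 ± 0.26.

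None of the genes in the remaining lists passed at 5 mg/kg. Of 12 inhibitory phosphatases and brakes on the signal, 9 were lower (median -0.10), among them the adaptors Dok1 (-0.53 ± 0.19) and Dok2 (-0.71 ± 0.28) and the phosphatase Ptpn22 (-0.96 ± 0.31, above the floor on 2 of 5 arrays at 5 mg/kg). Of 13 other ITIM receptors of leukocytes, 10 were lower (median -0.37), with the myeloid receptor Sirpa, which binds CD47, at -0.56 ± 0.23. The adhesion receptor Ceacam1 was at -2.05 ± 0.59 with 2 of 5 arrays above the floor at 5 mg/kg (limma adjusted p = 0.263), and Pecam1 at -0.40 ± 0.17 with 1 of 5. Other probe sets gave smaller differences, -0.26 ± 0.30 for Sirpa and -0.68 ± 0.34 and -1.40 ± 0.42 for Ceacam1. The Ceacam1 value ran from -2.65 to -0.52 over the other settings. Of 12 IgG handling and complement partners, 10 were lower (median -0.54), with the complement receptor C3ar1 at -0.95 ± 0.34, the integrin Itgax at -0.88 ± 0.33 and the C1q chain C1qc at -1.46 ± 0.68. C3ar1 and C1qc were each above the floor on 2 of 5 arrays at 5 mg/kg, and the other C3ar1 probe set differed by -0.31 ± 0.27. Of 7 other Fc receptors, 4 were lower and 3 higher (median -0.03), with the Fc receptor-like gene Fcrls at -1.07 ± 0.34, the IgM receptor Fcmr at -0.48 ± 0.38 and the cytosolic receptor Trim21 at 0.26 ± 0.36. Another Trim21 probe set had the opposite sign, -0.17 ± 0.26. Of 8 Src and Syk family kinases 5 were lower and 3 higher (median -0.04), with Fyn at 0.36 ± 0.22, the B cell kinase Blk at 0.64 ± 0.62 and Btk at -0.44 ± 0.40. At 1 mg/kg 11 of the 12 phosphatases and brakes, 12 of the 13 ITIM receptors and 9 of the 12 IgG partners were lower. So were 6 of the 7 other Fc receptors and 5 of the 8 kinases. The list counts at 1 mg/kg were not repeated without 1 mg/kg replicate 1.

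**Figure D4:**
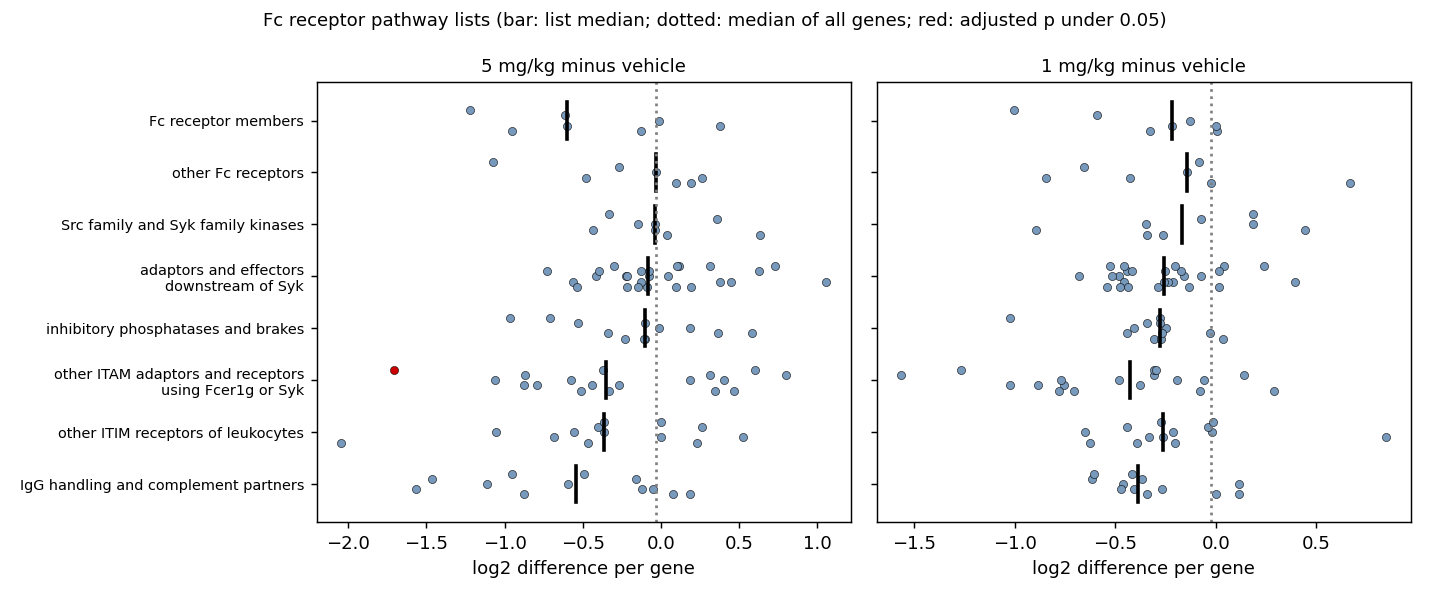
Log2 difference (x axis) for the genes of each pathway list (rows), 5 mg/kg minus vehicle on the left and 1 mg/kg minus vehicle on the right, with a point per gene, a bar for the list's median and a dotted line for the median of all genes. At 5 mg/kg the medians run from -0.60 for the 7 members to -0.03, and Clec7a, in red, is past the threshold. The -0.60 is the value of Fcgr1, which lay close to the floor. Over the 12 tested member probe sets 6 were lower and 6 higher, with a median of 0.07.

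Markers of some cell types also differed between the groups. The marker lists share genes with the pathway lists, such as Itgax (dendritic cells), Clec4d and Clec4e (neutrophils) and Cd79a (B cells). The 2 kinds of list are therefore not independent readings. Both were chosen with earlier results of these data known, so their counts are a description and not a test. The mean of the monocyte markers, over 20 genes, ran from 7.70 to 8.16 in vehicle, from 6.73 to 7.60 at 1 mg/kg and from 6.86 to 7.23 at 5 mg/kg, so neither dose overlapped vehicle. Of the 20 monocyte genes, 18 were lower at 5 mg/kg (median -0.83, 2 past the threshold) and 20 at 1 mg/kg (median -0.61), and none lay at the floor on all arrays. The dendritic cell markers, 6 of which were tested, ran from 5.05 to 5.57 at 5 mg/kg and from 5.80 to 6.19 in vehicle, also without overlap, with Bst2, Flt3 and Xcr1 at the floor on all arrays. The neutrophil markers ran from 5.60 to 6.75 at 5 mg/kg and from 6.26 to 7.02 in vehicle, overlapping. Of the 12 neutrophil genes tested, 10 were lower at 5 mg/kg (median -0.28) and 9 at 1 mg/kg (median -0.52). B cell markers ran from 7.06 to 7.73 at 5 mg/kg and from 6.58 to 7.68 in vehicle, overlapping. T cell markers ran from 6.87 to 7.79 at 5 mg/kg and from 6.86 to 7.52 in vehicle, overlapping. At 5 mg/kg 9 of the 13 B cell and 9 of the 10 T cell genes tested were higher. NK cell markers ran from 5.58 to 6.95 at 5 mg/kg and from 5.97 to 6.76 in vehicle, also overlapping. Of the 9 NK cell genes tested, 8 were lower at 5 mg/kg (median -0.38) and 9 at 1 mg/kg (median -0.55). The signal of 18S rRNA also differed, at 9.42 ± 0.42 at 5 mg/kg and 11.19 ± 0.94 in vehicle (SD, n = 5 each). It ran from 8.83 to 9.88 at 5 mg/kg and from 10.24 to 12.31 in vehicle, without overlap. A fit with it as a covariate can therefore hardly separate it from dose, and 0 of all probe sets passed at 5 mg/kg in that fit. With 18S signal as a covariate the differences at 5 mg/kg were -1.36 ± 0.55 for Fcgr4 and -0.64 ± 0.36 for Fcgr3 (SE, limma adjusted p = 0.545 and 0.653). The part of monocyte, dendritic cell, neutrophil or NK cell content in them was not tested.

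**Figure D5:**
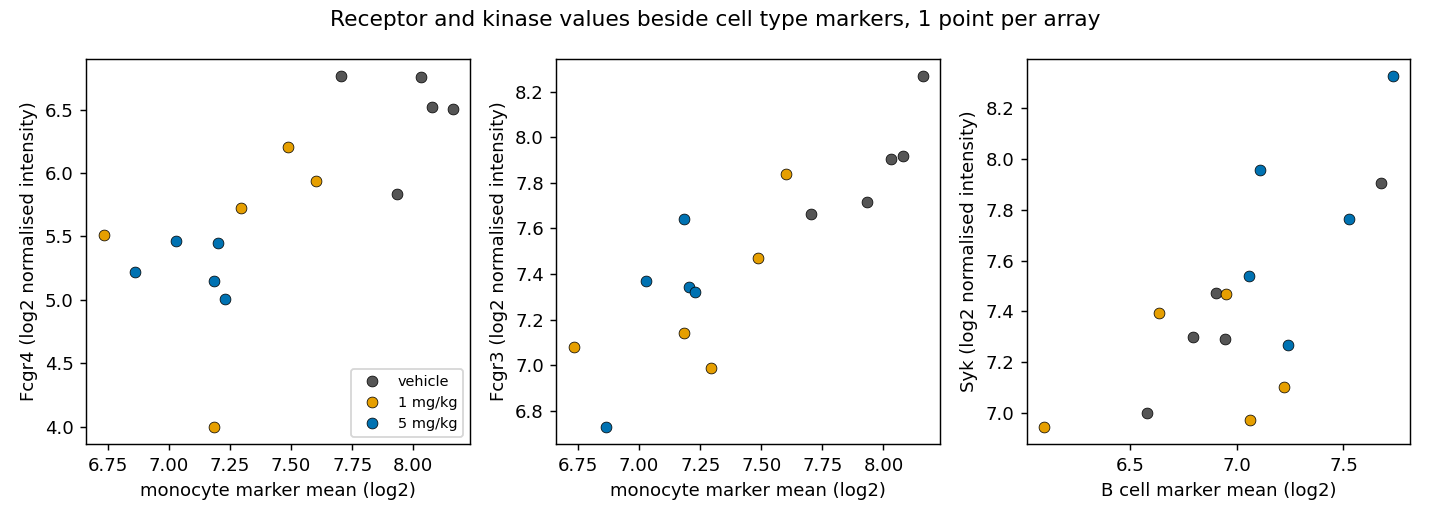
Log2 normalised intensity (y axis) of Fcgr4 and Fcgr3 against the mean log2 of the monocyte markers, and of Syk against that of the B cell markers (x axes), with a point per mouse coloured by group. On the monocyte axis the 5 mg/kg mice lie at 6.86 to 7.23 and the vehicle mice at 7.70 to 8.16.

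The tested genes whose pattern over the 15 arrays was most like a member's were named by Pearson's r, as a description, since arrays share group and normalisation. For Fcgr3 these were the calcium-binding protein S100a6 (r = 0.93), the ITAM adaptor Tyrobp (r = 0.92) and lysozyme Lyz1 (r = 0.91). After taking the group means out, they were 0.90, 0.87 and 0.81. For Fcgr4 they were Eps15, Epsti1 and Vma21 (r = 0.91, 0.90 and 0.90), and without 1 mg/kg replicate 1 they were 0.85, 0.86 and 0.82. For Fcer1g they were Fam160b1, Pcdhb13 and Csnk1a1 (r = 0.87, 0.84 and 0.81), and for Fcgr1, close to the floor, Senp3, Cdkl2 and Slc39a14 (r = 0.92, 0.89 and 0.89). Without 1 mg/kg replicate 1 these were 0.82, 0.78 and 0.85 for Fcer1g and 0.84, 0.76 and 0.76 for Fcgr1. For Syk they were Ets1 (r = 0.89), Ctdspl2 (r = 0.88) and Trim27 (r = 0.87). For Fcgr2b they were Hrh2, Mios and Pklr (r = 0.80, 0.76 and 0.75).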

How the data were processed

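Total RNA from whole blood was extracted with Qiazol and RNeasy columns and labelled with biotin by an Affymetrix 3′ IVT kit, per the labels' protocols. The deposited values are intensity values per probe set on a linear scale, including negative values. Neither the software nor any summarisation or scaling by the authors is known here. Members and gene lists were chosen with earlier results of these data known.

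From the deposited intensities 64 control probe sets were dropped, arrays were quantile normalised with limma 3.58.1 in R 4.3.3, values under 16 were set to 16 and log2 was taken; 52.7% of values lay at this floor. Probe sets above the floor on at least 5 arrays were tested with lmFit and eBayes on all 15 arrays (residual df 12) with Benjamini-Hochberg adjustment over 24273 probe sets. Where a gene has several probe sets, the one with the highest mean stands for it. Pathway genes named were the 3 per list with the lowest p at 5 mg/kg. Receptors were compared with Fcgr2b by an exact permutation test over samples, adjusted over 9 tests. Symbols came from GEO's platform annotation: 34945 probe sets had 1 gene, 932 several and 9160 none. Genes most like a member were the 3 with the highest Pearson correlation over the 15 arrays. Every tested single-gene probe set of another gene was searched for this, and clone or predicted names were left out. Other scalings, floors, filters, probe set rules, array weights, a replicate block, 18S signal as a covariate and leaving out each mouse were tried. The number of arrays limits the precision. The fitting scripts were tested on simulated data.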

Additional observations from a re-analysis of the deposited data

Results flagged for a closer look

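In groups of 5, a mouse was marked when its gap to the nearest other mouse, divided by the range of the group, was above Dixon's critical value of 0.71. Of 45 groups examined 4 were marked. For independent, normally spread values chance marks about 1 in 20. These groups share mice, and values set to the floor are not normally spread, so that rate is only a rough guide. Fcgr1 in 5 mg/kg replicate 5 read 5.42, the next mouse 4.33 and the lowest 4.00, a share of 0.764. The same mouse gave -1.02 for Fcgr1 minus Fcgr2b, against -2.27 for the next mouse and -2.55 for the lowest, a share of 0.817. Fcer1g in 5 mg/kg replicate 5 read 8.73, the next mouse 9.02 and the highest 9.14, a share of 0.727. Fcgr4 in vehicle replicate 1 read 5.83, the next mouse 6.51 and the highest 6.76, a share of 0.724.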

How the results depend on the processing

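The count of member probe sets past the threshold at 5 mg/kg against vehicle, 0 as reported, was 1 with a floor of 32 and 1 with array weights, and 0 to 1 when a mouse was left out; the 1 is Fcgr4 each time, and the mouse is 1 mg/kg replicate 1. Over all probe sets 33 passed there, 0 to 95 under other settings and 15 to 41 without a mouse. After taking the group means out, same-numbered mice of different groups correlated from -0.271 to 0.324, with 3 of 15 pairs over 0.1. The labels state no pairing, and these correlations cannot decide whether the numbers pair samples. With the number as a replicate block, Fcgr4 minus Fcgr2b was -1.21 and Fcgr3 minus Fcgr2b -0.603 at 5 mg/kg (exact p = 0.125 each, where this sign-flip test cannot go under 0.0625), and 28 probe sets passed in all. With Fcgr2b read by 1435476_a_at or 1451941_a_at, Fcgr3 minus Fcgr2b was -0.773 and -0.807, past no threshold. Without a mouse it ran from -0.746 to -0.489, with the exact p above 0.05 in 7 of 15.

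These values changed sign. Without scaling between arrays: Fcgr2b 1435477_s_at at 5 mg/kg 0.121; Fcgr1 -0.256, Fcer1g -0.0621 and Syk 1457239_at 0.218 at 1 mg/kg; Fcgr3 0.153 and Fcer1g 0.0437 between doses. Fcgr1 at 1 mg/kg was -0.0187 with 75th percentile scaling, -0.197 with a floor of 8 and -0.275 with array weights, and Fcgr2b 1451941_a_at -0.0202 with a floor of 8. Syk 1457239_at at 5 mg/kg was -0.0337 with a floor of 32, and Fcgr2b 0.108 by the mean of its probe sets. With 18S signal as a covariate, values at 5 mg/kg were 0.154 for Fcgr2b, 0.177 for Fcgrt, -0.376 for Syk 1457239_at, 0.0868 for C1qc and -0.095 for Fyn, and at 1 mg/kg -0.361 for Fcgr1, -0.15 for Fcer1g and 0.449 for Fcgrt. Fcgr1 minus Fcgr2b at 1 mg/kg was -0.0742 without scaling, -0.0678 with a floor of 8 and -0.11 with 1451941_a_at. Without a mouse, values at 5 mg/kg ran from -0.136 to 0.0838 (Fcgr2b 1435477_s_at) and -0.00276 to 0.379 (1451941_a_at). At 1 mg/kg they ran from -0.616 to 0.26 (Fcgr1), -0.103 to 0.145 (Fcer1g), -0.332 to 0.0722 (1435476_a_at), -0.137 to 0.292 (1451941_a_at), -0.644 to 0.128 (Fcgrt), -0.22 to 0.11 (Syk 1457239_at) and -0.51 to 0.456 (Fcgr1 minus Fcgr2b). Between doses they ran from -0.115 to 0.114 (Fcgr3), -0.107 to 0.32 (1451941_a_at) and -0.289 to 0.048 (Fcgr3 minus Fcgr2b). The cause of these changes was not tested. Of 978 values for member probe sets, 924 kept direction and side of the threshold and 51 reversed.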
